A study of Homo sapiens with 12 samples.

Results

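The wild-type (WT) samples of MDA-MB-468 were compared with the WT samples of MDA-MB-231 across the 11529 genes of the deposited expression table, to describe how these cell lines differ before any gene is knocked out. Both are human triple-negative breast cancer (TNBC) cell lines, which lack the oestrogen and progesterone receptors and HER2 amplification. The comparison used the 3 WT samples of each line, 6 of the 12 samples of the series. The other 6 were the SMARCA4 KO samples, 3 of each line, in which SMARCA4, an ATPase of the SWI/SNF chromatin remodeling complex, had been cut with CRISPR/Cas9 in puromycin-selected polyclonal pools. The study took MDA-MB-468 as a basal/stem-like (SL) line and MDA-MB-231 as a mesenchymal-like (MSL) line. Both were grown in the same medium with serum, and no cisplatin or YAP inhibitor treatment was described for the sequenced cells. Whether the control cells had been selected with puromycin was not stated. The sample descriptions call the WT samples controls, and do not say whether these cells were parental or had received a nontargeting vector. Each WT sample also carried a p number, 26 to 28 for MDA-MB-468 and 10 to 12 for MDA-MB-231. Its meaning was not stated, and it cannot be told apart from the line. The KO samples carried 25 to 27 and 10 to 12, so that WT and KO numbers were the same in MDA-MB-231 only. The fits did not use these numbers.

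Epithelial cells are held in sheets by E-cadherin junctions, tight junctions and desmosomes, and fill their cytoplasm with keratin filaments. Mesenchymal cells carry vimentin instead, secrete and degrade matrix, and move singly. Transcription factors of the ZEB and SNAI families repress epithelial genes during epithelial-mesenchymal transition (EMT), and GRHL2, OVOL2 and the ESRP splicing factors oppose them. Among TNBC cell lines, basal-like lines keep many epithelial and basal keratin genes, and claudin-low or mesenchymal-like lines have lost most of them.

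SMARCA4 was measured at 96.9, 97.4 and 101 FPKM (mapped fragments scaled to transcript length and library size) in the MDA-MB-468 WT samples and at 67.5, 71.5 and 67.0 FPKM in those of MDA-MB-231. It was at 39.7, 43.5 and 47.7 FPKM in the KO samples of MDA-MB-468 and at 21.0, 23.9 and 22.6 FPKM in those of MDA-MB-231, under every WT sample of its line. Between 11293 and 11333 genes were above 0 in a WT sample. Across genes, the log2 values of WT samples correlated at 0.990 to 0.995 within MDA-MB-468, at 0.991 to 0.993 within MDA-MB-231 and at 0.665 to 0.680 between the lines, as a description of these libraries. Replicate 1 stood slightly apart in each line: it was over 0.5 on the log2 scale from both other samples in 205 genes of MDA-MB-468 and in 254 genes of MDA-MB-231, against 93 to 128 genes for the other 4 samples. Of the marker genes of leukocytes, 6 of 28 were in the table, without PTPRC or CD3D. Of those of endothelial cells, 4 of 14 were there, without PECAM1 or VWF, and of those of fibroblasts, 0 of 14. The summed level of the leukocyte markers was 274 to 303 FPKM in MDA-MB-468 and 229 to 248 FPKM in MDA-MB-231, and that of the endothelial markers 16.9 to 19.8 and 111 to 116 FPKM.

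Most of the measured transcriptome differed between the lines. With limma's test across all genes, a Benjamini-Hochberg adjusted p under 0.05 with a log2 fold change beyond 0.5 either way, 7395 of 11529 genes (64.1%) were called, of which 3773 (32.7% of all genes) were higher in MDA-MB-468 and 3622 (31.4%) were higher in MDA-MB-231. All fold changes are MDA-MB-468 minus MDA-MB-231 on the log2(FPKM + 1) scale and are given with their standard error (SE). The median over all genes was 0.01, so that the genes higher and lower were near balance. A log2 fold change over 2 was reached by 891 called genes higher in MDA-MB-468 and by 779 higher in MDA-MB-231, and one over 5 by 106 and 65. Levels were close in fewer genes: the 95% confidence interval of the difference lay within 0.5 in 2266 genes (19.7%). A further 1868 genes were neither called nor bounded in this way.

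**Figure D1:**
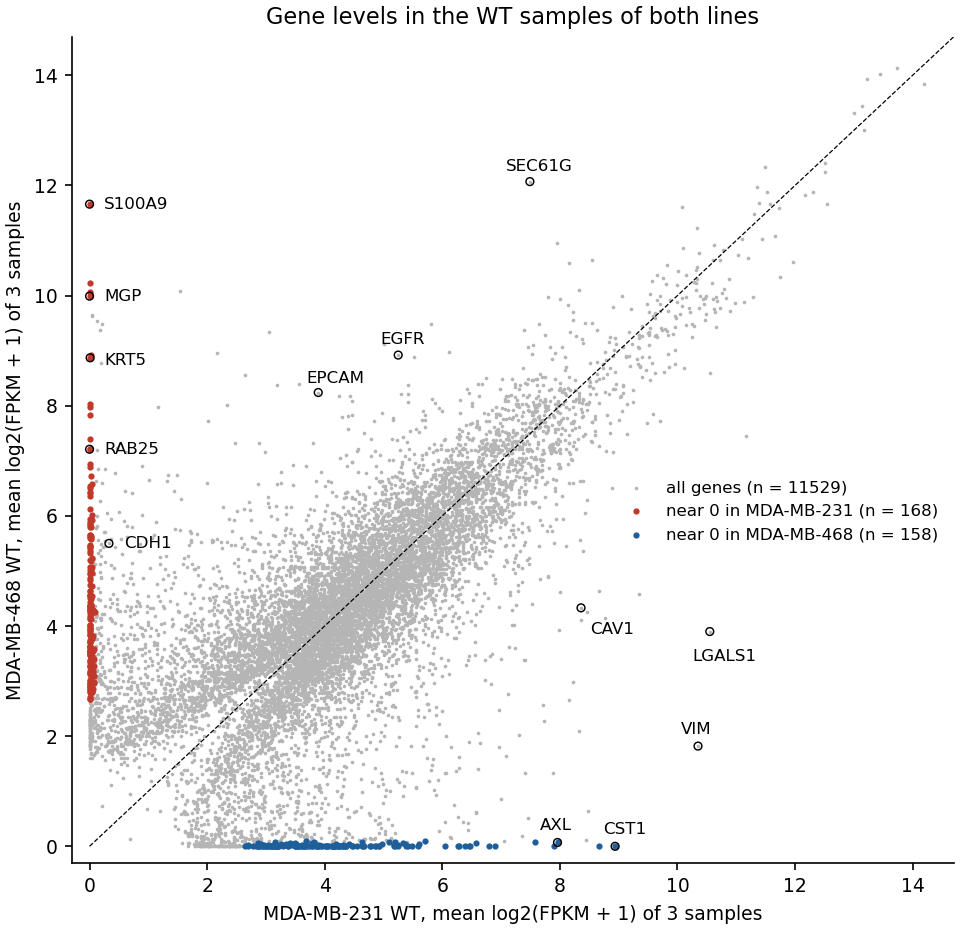
Mean log2(FPKM + 1) of the 3 WT samples of MDA-MB-468 (vertical axis) against that of MDA-MB-231 (horizontal axis) for all 11529 genes, 1 point a gene, with the dashed line marking equal levels. Coloured points lie on the axes: 168 genes were near 0 in MDA-MB-231 only and 158 near 0 in MDA-MB-468 only, and circled genes are named in the text.

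The share of called genes depends on which genes the table holds. The authors kept genes whose average and SD of FPKM over all 12 samples were at least 1, and a gene that differs between lines passes such a filter more easily. In 6375 genes (55.3%) the same limits were met within the 6 samples of each line taken alone, and 52.5% of these were called, 25.5% higher in MDA-MB-468 and 27% higher in MDA-MB-231. Of the other 5154 genes 78.5% were called. The count of every gene list is therefore to be read beside the 32.7% and 31.4% of all genes. List members missing from the table are counted as not measured.

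Genes of epithelial adhesion and junctions were higher in MDA-MB-468 in 26 of the 31 members measured (33 listed), or 83.9%. In MDA-MB-231 3 (9.68%) were higher, and the median log2 fold change was 3.37. The 3 members listed at 0 in all samples of a line were left out of a second median, which was 3.34. CDH1, which encodes E-cadherin, was at 51.8, 42.1 and 39.4 FPKM in MDA-MB-468 and at 0.12, 0.27 and 0.41 FPKM in MDA-MB-231, a log2 fold change of 5.16 ± 0.13 (SE, n = 3 and 3; adjusted p = 1.0e-08). The lowest MDA-MB-468 sample was far above the highest of MDA-MB-231. EPCAM, an epithelial adhesion molecule, stood at 297, 302 and 307 against 12.4, 12.8 and 16.7 FPKM (4.35 ± 0.11, adjusted p = 1.3e-08), so that it was reduced in MDA-MB-231 and not near 0. Among the tight junction proteins, CLDN7 was at 224, 220 and 224 against 14, 24.2 and 23.9 FPKM (3.41 ± 0.19) and the scaffold TJP3 at 59.9, 57.3 and 58.7 against 0.28, 0.72 and 0.56 FPKM (5.30 ± 0.11). The claudins were not reduced alike, since CLDN4 still reached 63.8, 72.6 and 77.7 FPKM in MDA-MB-231 against 140, 111 and 126 FPKM (0.80 ± 0.11, adjusted p = 2.2e-04). CLDN8 and the desmosomal cadherin DSC3 were listed at 0 in all 3 MDA-MB-231 samples, and at 37.7 to 41.5 and at 9.66 to 11.2 FPKM in MDA-MB-468. The members higher in MDA-MB-231 were the desmosomal cadherin DSG2 (-0.83 ± 0.10), the polarity gene PARD6B (-0.79 ± 0.12) and the desmosome linker PPL, which was listed at 0 in every MDA-MB-468 sample and at 3.26, 4.42 and 4.36 FPKM in MDA-MB-231. The desmosomal plakophilin PKP2 was not called (0.09 ± 0.09, adjusted p = 0.37).

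The transcription and splicing factors that maintain the epithelial state went the same way. Of 21 members measured (30 listed) 20 (95.2%) were higher in MDA-MB-468 and none in MDA-MB-231. The median was 3.38 (5.45 with a pseudocount of 0.1 in place of 1). ESRP1, which directs epithelial exon choice, was at 56.3, 52.6 and 54.5 FPKM in MDA-MB-468 and at 0.02, 0 and 0.02 FPKM in MDA-MB-231. GRHL2, a grainyhead factor that opposes ZEB1, was at 21.1, 21.7 and 21.6 against 0.03, 0.34 and 0 FPKM (4.34 ± 0.12, adjusted p = 1.6e-08). ELF3, an epithelial ETS factor, was at 419, 321 and 397 against 4.22, 6.91 and 4.99 FPKM (5.91 ± 0.17). The luminal pioneer factor FOXA1 was at 56.4, 46.2 and 45.6 against 0.02, 0 and 0 FPKM, and GATA3, which also specifies luminal cells, at 24.9, 24.6 and 28.6 against 3.35, 3.14 and 3.86 FPKM (2.60 ± 0.09). VGLL1, a cofactor of TEAD factors, was at 226, 255 and 273 FPKM in MDA-MB-468 and listed at 0 in MDA-MB-231. The exception was the ETS factor EHF, which was high in both lines at 95.5, 85.1 and 81.6 against 64.2, 77.1 and 67.1 FPKM (0.33 ± 0.10). SOX9 passed narrowly (0.52 ± 0.10, adjusted p = 0.0018), and fell under the limit without replicate 1 (0.46) or replicate 3 (0.47) of MDA-MB-468.

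Epithelial proteases and trafficking genes were higher in MDA-MB-468 in all 18 members measured (20 listed; median 3.67, or 3.25 without the 3 listed at 0 in a line). RAB25, a small GTPase of apical recycling, was at 156, 140 and 147 FPKM and listed at 0 in all 3 MDA-MB-231 samples. The membrane protease matriptase, ST14, was at 115, 122 and 118 against 0.50, 1.04 and 1.08 FPKM (6.01 ± 0.13, adjusted p = 5.2e-09), and the kallikrein KLK5 at 442, 494 and 520 against 0, 0.04 and 0 FPKM. The smallest difference of the list was that of MYO5C, a myosin of apical transport (1.54 ± 0.09).

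Among the keratins, 15 of 16 measured (23 listed), or 93.8%, were higher in MDA-MB-468 and 1, KRT80 (-1.11 ± 0.15), was higher in MDA-MB-231. The basal keratin KRT5 was at 340, 502 and 599 FPKM in MDA-MB-468 and at 0, 0 and 0.02 FPKM in MDA-MB-231. KRT17, another basal keratin, was at 67.0, 122 and 154 against 0.29, 0.49 and 0.27 FPKM (6.34 ± 0.27). Replicate 1 was the lowest MDA-MB-468 sample for both, and stayed far above MDA-MB-231. The keratins of simple and luminal epithelia were lower in MDA-MB-231 and still abundant there: KRT19 was at 2194, 1886 and 1895 against 198, 265 and 288 FPKM (3.0 ± 0.14) and KRT8 at 1634, 1585 and 1593 against 283, 396 and 456 FPKM (2.11 ± 0.16). KRT6A, KRT6B, KRT14, KRT16 and KRT17 have near-identical relatives, and how the authors' estimates split shared reads among them was not tested.

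Marker lists were set beside the labels of a basal-like and a mesenchymal-like line. They do not test the labels: the lists were chosen with earlier results known, and a marker expressed in 1 line can enter the table through that line. Of 15 basal-like markers measured (21 listed), 14 were higher in MDA-MB-468 and 1 was higher in MDA-MB-231. Of 17 mesenchymal-like markers (20 listed) 16 were higher in MDA-MB-231. The exception was CD44, at 961, 882 and 827 FPKM in MDA-MB-468 against 542, 473 and 432 FPKM (0.89 ± 0.10). Luminal markers were also higher in MDA-MB-468, in 10 of 12 measured (18 listed), none being higher in MDA-MB-231. The lists overlap, since KRT5, EGFR and VIM also stand in lists named above and below.

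**Figure D2:**
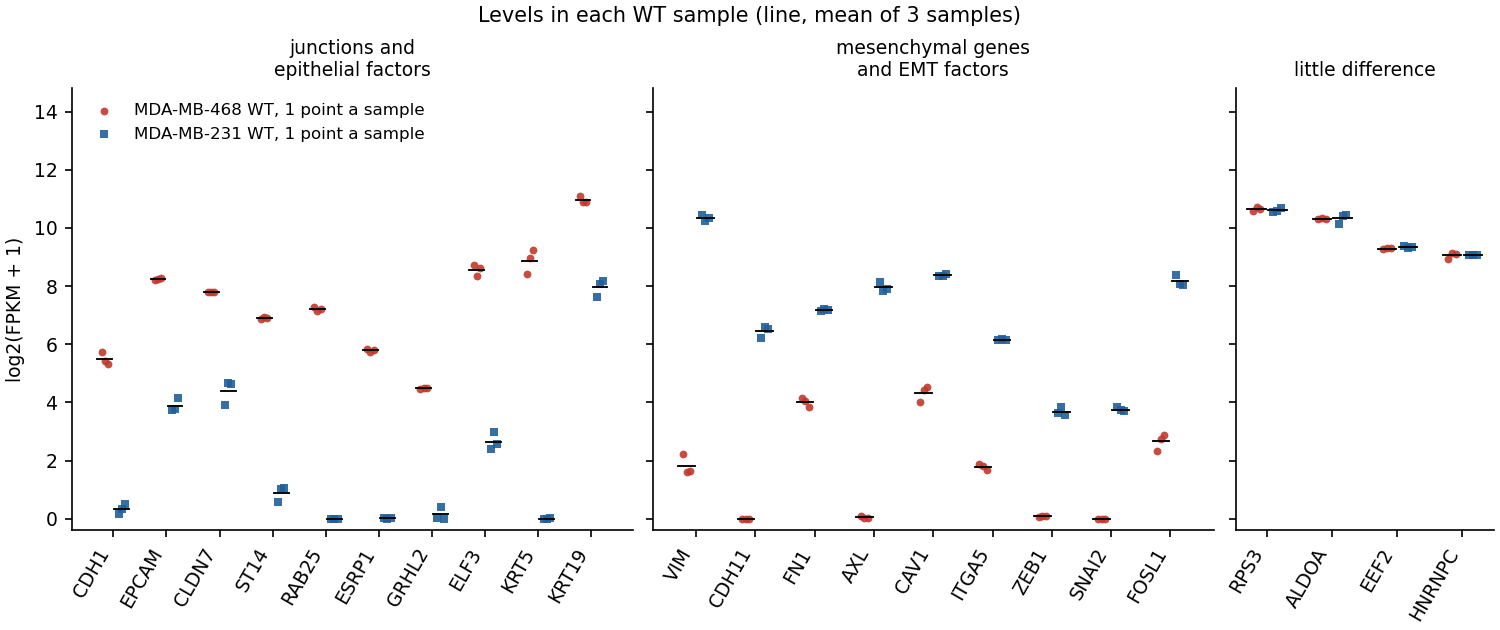
log2(FPKM + 1) of 23 genes in each of the 6 WT samples (MDA-MB-468, circles; MDA-MB-231, squares; bar, mean of 3 samples). No MDA-MB-468 sample overlaps an MDA-MB-231 sample in the left and middle panels. The WT samples of the lines did not overlap in 9853 genes, 85.5% of all measured, so non-overlap alone does not set these genes apart. The samples of both lines lie together for RPS3, ALDOA, EEF2 and HNRNPC at the right.

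The promoters of 5 of these genes are printed because each holds a CACCTG E-box, the letters that ZEB and SNAI factors bind, in the 300 bases around its start (250 before to 50 after; RefSeq, GRCh38.p14). RAB25 (chr1:156060910-156061209, plus strand), ELF3 (chr1:202010337-202010636, plus), S100A14 (chr1:153616276-153616575, minus) and KRT5 (chr12:52520345-52520644, minus) were higher in MDA-MB-468, and AXL (chr19:41218973-41219272, plus), shown for contrast, was higher in MDA-MB-231. Capitals mark CACCTG on either strand, the other strand reading CAGGTG.
RAB25: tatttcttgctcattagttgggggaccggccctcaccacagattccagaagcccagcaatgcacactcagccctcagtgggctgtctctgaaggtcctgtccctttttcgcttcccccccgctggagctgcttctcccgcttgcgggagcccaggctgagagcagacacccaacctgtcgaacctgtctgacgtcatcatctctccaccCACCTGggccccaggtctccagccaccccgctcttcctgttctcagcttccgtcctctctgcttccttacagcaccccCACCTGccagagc
ELF3: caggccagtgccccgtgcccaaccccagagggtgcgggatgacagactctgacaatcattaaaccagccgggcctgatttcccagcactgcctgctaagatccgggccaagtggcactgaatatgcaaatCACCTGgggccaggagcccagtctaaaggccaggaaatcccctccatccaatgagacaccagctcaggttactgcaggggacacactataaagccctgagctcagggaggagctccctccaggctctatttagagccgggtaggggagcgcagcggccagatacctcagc
S100A14: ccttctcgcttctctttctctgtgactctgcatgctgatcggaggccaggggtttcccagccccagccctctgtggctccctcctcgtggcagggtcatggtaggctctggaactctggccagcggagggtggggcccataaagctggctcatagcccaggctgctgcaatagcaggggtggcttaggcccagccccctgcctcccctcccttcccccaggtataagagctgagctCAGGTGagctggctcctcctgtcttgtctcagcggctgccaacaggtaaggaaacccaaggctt
KRT5: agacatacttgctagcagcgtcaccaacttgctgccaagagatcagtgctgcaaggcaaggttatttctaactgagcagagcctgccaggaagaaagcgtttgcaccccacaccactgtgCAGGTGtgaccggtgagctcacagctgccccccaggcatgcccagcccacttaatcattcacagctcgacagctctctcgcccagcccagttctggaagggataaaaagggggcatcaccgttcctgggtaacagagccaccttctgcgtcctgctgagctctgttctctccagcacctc
AXL: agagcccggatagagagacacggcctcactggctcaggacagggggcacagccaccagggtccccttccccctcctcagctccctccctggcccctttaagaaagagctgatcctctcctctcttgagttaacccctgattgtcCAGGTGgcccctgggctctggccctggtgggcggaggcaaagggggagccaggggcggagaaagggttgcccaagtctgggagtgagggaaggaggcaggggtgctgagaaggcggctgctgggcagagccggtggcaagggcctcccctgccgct

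Of the 11529 genes 8873 had a promoter in the RefSeq table. CACCTG occurred on either strand in 18.3% of the 8873 promoters, in 31.4% of the 583 promoters of genes called higher in MDA-MB-468 by over 2 and in 15.6% of the 544 of genes called higher in MDA-MB-231 by over 2. It occurred in 34.3% of the 105 promoters of genes near 0 in MDA-MB-231 and in 15.8% of the 95 of genes near 0 in MDA-MB-468. Base composition moved with these sets, since 37.4% of the promoters higher in MDA-MB-468, 30.5% of those higher in MDA-MB-231 and 17.3% of all held 15 or fewer CG dinucleotides. Within promoters of 15 or fewer CG, CACCTG occurred in 36.7%, 15.7% and 21.5% of these sets, and within those over 15 CG in 28.2%, 15.6% and 17.6%. The AP-1 motif TGANTCA was found in 4.51% of all promoters, in 5.49% of those higher in MDA-MB-468 and in 8.64% of those higher in MDA-MB-231, and the TEAD motif GGAATG in 10.7%, 11.7% and 14.3%. By gene list, only part of the members had a promoter. Of the 31 genes of epithelial adhesion and junctions 16 had one, CDH1 not among them, and 7 (43.8%) held CACCTG. Of the 21 epithelial transcription and splicing factors 13 had one, and 4 (30.8%) held it. It occurred in 12.5% of 16 promoters of mesenchymal structure and adhesion and in 8.33% of 12 of cytokines and chemokines. Matrix proteases and inhibitors, mostly higher in MDA-MB-231, held it in 35.3% of 17. Binding of any factor was not measured.

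Mesenchymal structure and adhesion genes were higher in MDA-MB-231 in 18 of the 23 members measured (34 listed), or 78.3%. In MDA-MB-468 1 (4.35%) was higher, and the median was -3.29. VIM, the mesenchymal intermediate filament, was at 3.66, 2.04 and 2.12 FPKM in MDA-MB-468 and at 1396, 1219 and 1311 FPKM in MDA-MB-231 (-8.53 ± 0.16, adjusted p = 3.0e-09). The mesenchymal cadherin CDH11 was listed at 0 in all 3 MDA-MB-468 samples and was at 73.9, 95.3 and 91.1 FPKM in MDA-MB-231. Fibronectin, FN1, was lower in MDA-MB-468 and not lost, at 16.9, 15.5 and 13.3 against 141, 148 and 144 FPKM (-3.17 ± 0.09). LGALS1, a galectin abundant in mesenchymal cells, differed most among genes over 10 FPKM in all 6 samples, at 16.1, 15 and 11.1 against 1422, 1443 and 1623 FPKM (-6.65 ± 0.13). Not every gene linked with mesenchymal cells followed. The tropomyosin TPM1 was higher in MDA-MB-468 (2.30 ± 0.09), the caldesmon CALD1 (-0.41 ± 0.10; called at -0.51 without MDA-MB-468 replicate 1) and the calponin CNN3 (0.19 ± 0.06) were not called, and S100A4 spread from 575 to 989 FPKM within MDA-MB-231 around the 749 to 818 FPKM of MDA-MB-468 (0.04 ± 0.18).

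Of the 9 EMT transcription factors measured (16 listed), 7 (77.8%) were higher in MDA-MB-231. SNAI2 was listed at 0 in MDA-MB-468 and at 13.2, 12.3 and 12 FPKM in MDA-MB-231, and ZEB2 was listed at 0 and at 4.08, 4.42 and 3.26 FPKM. ZEB1 was at 0.04, 0.08 and 0.07 against 11.6, 13.2 and 11 FPKM (-3.60 ± 0.08, adjusted p = 7.3e-09). FOSL1, an AP-1 subunit, was the most abundant of them in MDA-MB-231, at 4.07, 5.77 and 6.42 against 334, 265 and 261 FPKM (-5.50 ± 0.16). KLF8 went the other way, at 21.6, 21.0 and 21.8 against 0.32, 0.46 and 0.37 FPKM (4.02 ± 0.07), and TCF3 was not called (0.46 ± 0.07). SNAI1, TWIST1 and CDH2 were among the listed genes that the table does not hold. Caveolae, the membrane pits built by caveolins and cavins, showed the same direction in 6 of 8 genes: CAV1 was at 15, 20.7 and 22.3 against 322, 322 and 342 FPKM (-4.04 ± 0.14), and the cavin gene PRKCDBP was listed at 0 in MDA-MB-468 and at 84.0, 82.0 and 98.7 FPKM in MDA-MB-231. PACSIN3 was higher in MDA-MB-468 (0.98 ± 0.08).

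Matrix genes were mostly higher in MDA-MB-231. Of 27 collagens, laminins and proteoglycans measured (37 listed) 21 (77.8%) were higher there and 3 (11.1%) in MDA-MB-468 (median -2.27). COL6A1 and COL6A2, chains of collagen VI, and COL5A1 were listed at 0 in all 3 MDA-MB-468 samples and at 40.7 to 42.2, 15.5 to 17.8 and 31.2 to 47.3 FPKM in MDA-MB-231. The basement membrane chain LAMB3 was at 8.75, 9.39 and 10.3 against 181, 173 and 153 FPKM (-4.02 ± 0.09). COL5A2 (2.93 ± 0.08), LAMA4 (2.64 ± 0.09) and COL4A5 (0.67 ± 0.13) were higher in MDA-MB-468. Of 24 matrix proteases and inhibitors measured (35 listed) 16 (66.7%) were higher in MDA-MB-231 and 6 (25%) in MDA-MB-468. PLAU, the urokinase activator of plasminogen, was at 1.35, 1.67 and 1.51 against 252, 230 and 229 FPKM (-6.57 ± 0.08). The membrane metalloprotease MMP14 was at 4.82, 3.57 and 3.31 against 222, 220 and 194 FPKM (-5.45 ± 0.12), while its relative MMP15 was higher in MDA-MB-468 (2.20 ± 0.11). Among integrins, 7 of 12 measured (17 listed), or 58.3%, were higher in MDA-MB-231 and 3 (25%) in MDA-MB-468. The fibronectin receptor chain ITGA5 led the former, at 2.67, 2.54 and 2.24 against 69.3, 71.8 and 69.6 FPKM (-4.36 ± 0.07). The epithelial chain ITGB6 had the opposite direction, at 31.4, 28 and 25.8 against 0.41, 0.54 and 0.88 FPKM (4.2 ± 0.12).

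Receptors and ligands of the epidermal growth factor (ERBB) family were divided between the lines. The receptor EGFR was at 511, 468 and 473 FPKM in MDA-MB-468 and at 42.1, 36.9 and 33.0 FPKM in MDA-MB-231 (3.67 ± 0.10, adjusted p = 1.6e-08), and its partner ERBB3 at 35.4, 25.7 and 25.9 against 1.62, 1.42 and 2.29 FPKM (3.43 ± 0.16). ERBB2 was alike in level, at 24.0, 20.8 and 24.1 against 23.5, 24.5 and 23.3 FPKM, with a difference of -0.05 whose 95% interval lay within 0.5. All 5 ligands measured were higher in MDA-MB-231: HBEGF was at 1.37, 1.4 and 1.77 against 76.9, 56.2 and 64.4 FPKM (-4.72 ± 0.12), AREG (-2.93 ± 0.07), EREG (-2.62 ± 0.08) and TGFA (-1.09 ± 0.08) differed less, and NRG1, a ligand of ERBB3, was listed at 0 in MDA-MB-468 and at 48.6, 44.6 and 48.7 FPKM in MDA-MB-231. Of 24 other receptor tyrosine kinases and ligands, 8 (33.3%) were higher in MDA-MB-468 against 11 (45.8%) in MDA-MB-231, beside 32.7% and 31.4% of all genes. AXL was at 0.08, 0.03 and 0.03 against 282, 225 and 240 FPKM (-7.89 ± 0.10, adjusted p = 4.8e-10), and its ligand GAS6 at 3.98, 4.58 and 5.26 against 112, 123 and 137 FPKM (-4.48 ± 0.11). MET, the receptor of hepatocyte growth factor, was at 12.5, 11.8 and 10.7 against 55.4, 53.8 and 49.8 FPKM (-2.10 ± 0.08). On the MDA-MB-468 side stood the collagen receptor DDR1 (3.62 ± 0.07), the growth factor gene KITLG (3.89 ± 0.09) and FGFR2, which was listed at 0 in MDA-MB-231 and at 5.08 to 5.70 FPKM in MDA-MB-468.

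TGF-beta signalling genes differed in both directions, and most YAP/TAZ target genes were higher in MDA-MB-231. Of 25 TGF-beta and BMP genes 8 (32%) were higher in MDA-MB-468 against 11 (44%) in MDA-MB-231 (median -0.13). The shares of all genes were 32.7% and 31.4%. The ligand TGFB1 was at 6.46, 6.85 and 6.66 against 35.1, 34.0 and 34.8 FPKM (-2.22 ± 0.06) and the receptor TGFBR2 at 9.75, 8.45 and 8.87 against 57.3, 54.3 and 51.9 FPKM (-2.47 ± 0.08). SMAD4, the shared partner of the receptor-activated SMADs, was at 0.04, 0.03 and 0.03 against 28.7, 32.7 and 30.8 FPKM (-4.94 ± 0.07, adjusted p = 9.7e-10), while SMAD1 was higher in MDA-MB-468 (2.41 ± 0.14). Of 22 YAP/TAZ target genes 15 (68.2%) were higher in MDA-MB-231, 5 (22.7%) in MDA-MB-468 and 2 were not called, with a median of -0.75. ANKRD1 was at 2.43, 2.11 and 1.85 against 123, 125 and 161 FPKM (-5.45 ± 0.12), CTGF at 8.16, 9.04 and 14 against 126, 71.7 and 88.8 FPKM (-3.08 ± 0.24) and CYR61 at 138, 152 and 137 against 574, 398 and 484 FPKM (-1.75 ± 0.13). The targets higher in MDA-MB-468 included IGFBP3, at 314, 266 and 283 against 23.1, 17.9 and 21.0 FPKM (3.74 ± 0.11), and AMOTL2 (0.70 ± 0.10).

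Cytokine and chemokine genes were higher in MDA-MB-231 in 14 (70%) of 20 measured (29 listed) and higher in MDA-MB-468 in 5 (25%). Their median was -2.48. The growth factor CSF2 was at 0, 0.20 and 0 FPKM in MDA-MB-468 and at 155, 119 and 123 FPKM in MDA-MB-231. IL6 was at 0.16, 0.54 and 0.33 against 139, 74.0 and 60.2 FPKM (-6.01 ± 0.28), and IL8 at 3.97, 5.80 and 5.10 against 374, 145 and 172 FPKM (-5.16 ± 0.33). Replicate 1 of MDA-MB-231 was the highest sample for CSF2, IL6 and IL8, and the other samples of that line were still above every MDA-MB-468 sample. The chemokines CXCL16 (2.93 ± 0.17), CX3CL1 (2.19 ± 0.08) and CCL28 (1.60 ± 0.11) were higher in MDA-MB-468.

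Antigen presentation differed by class. All 6 MHC class II genes measured (13 listed) were higher in MDA-MB-231. Their summed level was 2.07 to 4.08 FPKM in MDA-MB-468 and 288 to 519 FPKM in MDA-MB-231. Genes this low in MDA-MB-468 enter the table through MDA-MB-231, so their shared direction is no test. The invariant chain CD74 was at 0.19, 0.04 and 0.04 against 249, 393 and 436 FPKM (-8.33 ± 0.20). The class II master regulator CIITA was at 0.31, 0.19 and 0.48 against 9.0, 11.2 and 7.6 FPKM (-2.94 ± 0.14). HLA-DRA was listed at 0 in MDA-MB-468 and at 7.15, 20.0 and 25.1 FPKM in MDA-MB-231. The samples of MDA-MB-231 spread widely in these genes, with replicate 1 lowest for CD74 and HLA-DRA. Of 20 class I and antigen processing genes 5 (25%) were higher in MDA-MB-468, 4 (20%) in MDA-MB-231 and 11 were not called. Both shares were under the 32.7% and 31.4% of all genes. B2M, the class I light chain, was at 990, 989 and 1071 against 1299, 1336 and 1386 FPKM (-0.40 ± 0.07). HLA-B was higher in MDA-MB-231 (-1.96 ± 0.09), a gene whose alleles differ between people and from the reference used for alignment, and the part of this in the values was not tested. Of 39 interferon-stimulated genes measured (42 listed) 22 (56.4%) were higher in MDA-MB-231 and 9 (23.1%) in MDA-MB-468. The DNA sensor IFI16 was at 0.06, 0.06 and 0.08 against 47.9, 51.0 and 54.2 FPKM (-5.61 ± 0.07) and IFIT1, which binds viral RNA, at 1.91, 0.93 and 0.98 against 31.9, 38.6 and 42.7 FPKM (-4.11 ± 0.18). MX1 (1.46 ± 0.11) and OAS1 (2.18 ± 0.13), both antiviral enzymes, were higher in MDA-MB-468.

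The 168 genes near 0 in MDA-MB-231 (1.46% of all) were under 0.1 FPKM in each of its 3 samples and over 5 FPKM in each MDA-MB-468 sample, and 90 of them were listed at exactly 0 in all 3. S100A9, a subunit of calprotectin, was at 2886, 3421 and 3413 FPKM in MDA-MB-468 and listed at 0 in every MDA-MB-231 sample. S100A7, psoriasin, was at 998, 1375 and 1225 FPKM, CASP14, a caspase of keratinocyte cornification, at 1239, 1006 and 997 FPKM, and MGP, an inhibitor of calcification, at 1005, 1063 and 986 FPKM, each listed at 0 in MDA-MB-231. ALDH3B2 (249 to 270 FPKM), the glutamate transporter SLC1A6 (219 to 241 FPKM), KLK6 (134 to 193 FPKM) and CALML5, a calmodulin-like protein of differentiating keratinocytes (144 to 157 FPKM), were also listed at 0 there. Just above the limit stood S100A8, the other calprotectin subunit, at 697, 873 and 817 against 0.10, 0 and 0 FPKM, FXYD3 at 904, 773 and 721 against 0.10, 0 and 0 FPKM and S100A14 at 756, 700 and 696 against 0.08, 0.21 and 0.21 FPKM. The S100 family did not move as 1 block: S100A6 was at 1673, 1584 and 1450 against 3099, 4214 and 4926 FPKM (-1.35 ± 0.16) and S100A10 was not called (-0.12 ± 0.11).

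The 158 genes near 0 in MDA-MB-468 (1.37%) met the same limits the other way, and 97 of them were listed at exactly 0. The highest in MDA-MB-231 were CST1, at 393, 523 and 571 FPKM, and CST3, at 368, 374 and 478 FPKM, which encode cystatins, secreted inhibitors of cysteine proteases. Their relative CST4 was at 77.5, 127 and 134 FPKM, and all 3 were listed at 0 in MDA-MB-468. CST1, CST2 and CST4 are near-identical, and their reads may have been split among them. G0S2, an inhibitor of lipolysis, was at 296, 206 and 219 FPKM and listed at 0 in MDA-MB-468, and TGM2, a transglutaminase that cross-links matrix, was at 0.08, 0.05 and 0.04 against 173, 210 and 188 FPKM. NGFRAP1 (102 to 133 FPKM), CDH11 (73.9 to 95.3 FPKM) and BASP1, a membrane and cytoskeleton protein (70.9 to 86.6 FPKM), were listed at 0 in MDA-MB-468. The median level in the expressing line was 17.9 FPKM for the genes near 0 in MDA-MB-231 and 13.7 FPKM for those near 0 in MDA-MB-468, so most of both sets were of moderate level.

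Metabolic genes differed by pathway. PHGDH, the first enzyme of serine synthesis, was at 268, 240 and 248 FPKM in MDA-MB-468 and at 1.16, 1.51 and 1.05 FPKM in MDA-MB-231 (6.82 ± 0.09, adjusted p = 8.1e-10). The next enzymes of the pathway, PSAT1 (0.63 ± 0.07) and PSPH (2.79 ± 0.07), were also higher in MDA-MB-468, as were 8 of 14 measured genes of serine, glycine and one-carbon metabolism, against 1 higher in MDA-MB-231. Of 18 aldehyde dehydrogenase and retinoid genes 13 were higher in MDA-MB-468 against 3 in MDA-MB-231: ALDH1A3, which makes retinoic acid, was at 229, 278 and 269 against 4.11, 4.28 and 3.76 FPKM (5.68 ± 0.09) and the retinoic acid binding protein CRABP2 at 690, 632 and 614 against 5.23, 8.24 and 8.97 FPKM (6.28 ± 0.17). Glycolysis and hypoxia genes leaned the other way, with 22 of 31 (71%) higher in MDA-MB-231 and 3 (9.68%) in MDA-MB-468 (median -1.38). The lactate exporter SLC16A3 was at 4.28, 2.91 and 2.84 against 276, 328 and 363 FPKM (-6.22 ± 0.15), and the lactate dehydrogenase subunit LDHB at 14.3, 16.5 and 19.3 against 408, 430 and 461 FPKM (-4.62 ± 0.11). The glucose transporter SLC2A1 was higher in MDA-MB-231 (-1.41 ± 0.07) and the hexokinase HK1 was not called (0.07 ± 0.07). The hypoxia genes did not share 1 direction, since CA9, a carbonic anhydrase, was higher in MDA-MB-468 (1.80 ± 0.36) and NDRG1, at 27.3, 6.02 and 4.91 against 81.6, 152 and 166 FPKM, was higher in MDA-MB-231 (-3.60 ± 0.57).

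**Figure D3:**
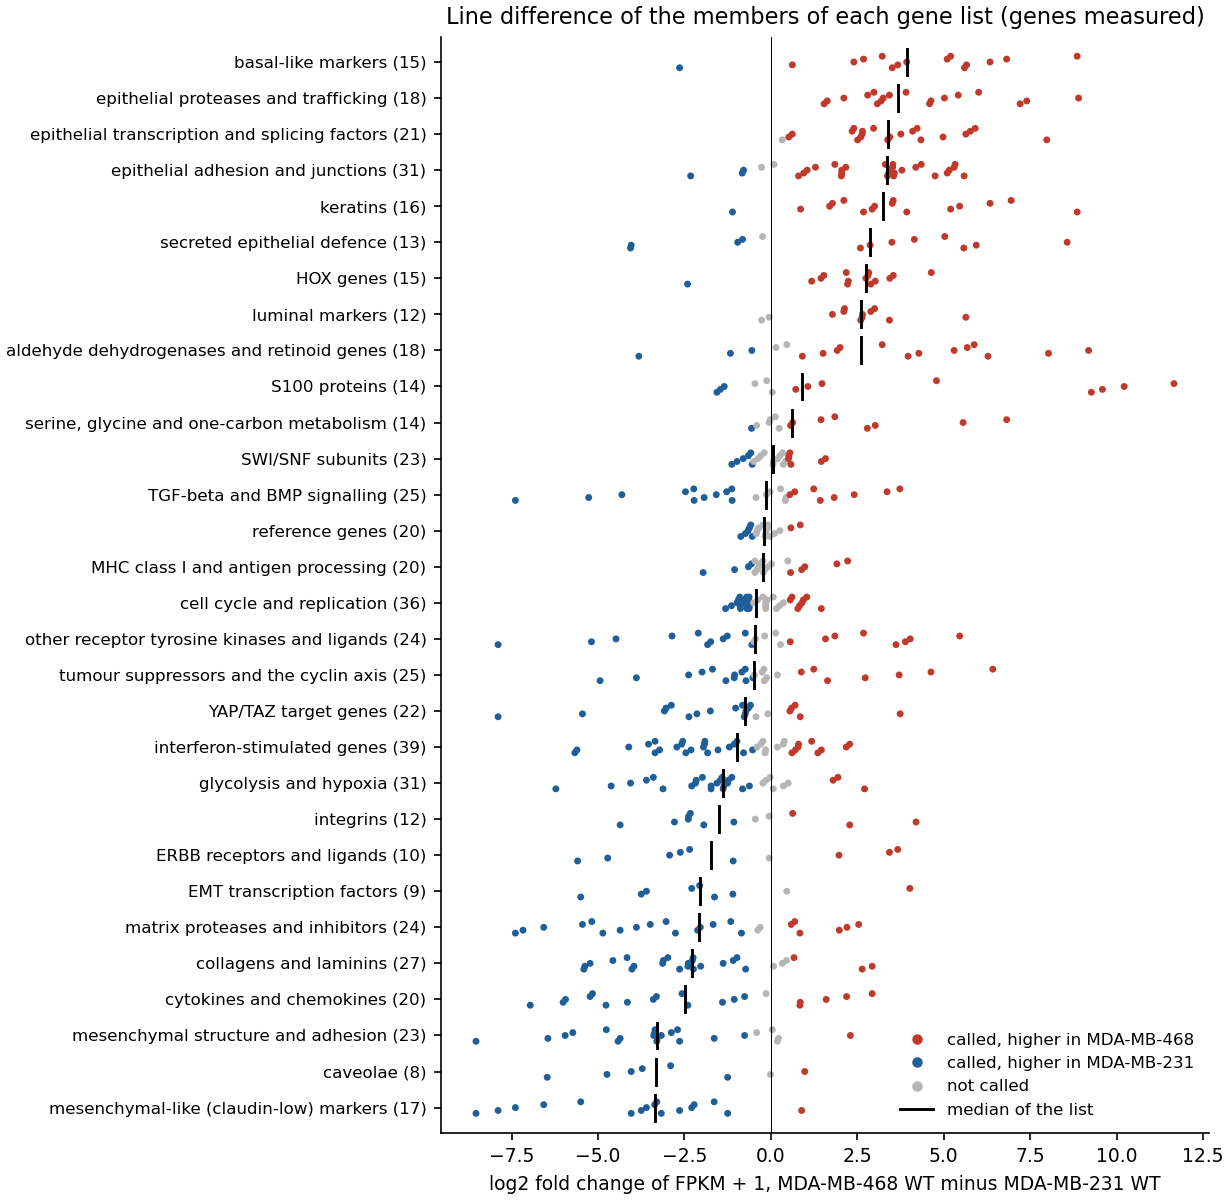
log2 fold change (MDA-MB-468 WT minus MDA-MB-231 WT, FPKM + 1) of the measured members of 30 gene lists of 8 or more genes, 1 point a gene, with the list's median as a bar and the number measured in parentheses. Lists are sorted by median, from mesenchymal-like markers (-3.36) to basal-like markers (3.93, or 7.05 with a pseudocount of 0.1), and SWI/SNF subunits (0.07) and reference genes (-0.20) lie near 0.

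Neighbouring genes near 0 together were found on 8 chromosomes. On chromosome 16, 10 consecutive measured genes between 4560670 and 5010742 (GRCh37) were under 0.1 FPKM in every MDA-MB-468 sample: CDIP1, UBALD1, MGRN1, NUDT16L1, ANKS3, ZNF500, ROGDI, GLYR1, UBN1 and PPL. These genes of varied function were at 3.26 to 30.0 FPKM in MDA-MB-231, with the nuclear protein GLYR1 at 30.0, 29.4 and 29.2 FPKM and the histone chaperone UBN1 at 18.3, 17.0 and 15.3 FPKM. The gene beside the stretch, the heme oxygenase HMOX2, was at 5.29, 4.02 and 3.49 against 55.0, 59.7 and 60.3 FPKM (-3.51), and beyond it NMRAL1 (0.04) and DNAJA3 (0.40) were not called. On the other side SEC14L5 was at 4.12, 3.38 and 3.32 FPKM in MDA-MB-468 and at 0, 0.11 and 0 FPKM in MDA-MB-231. There were 2 such stretches on chromosome X: ARMCX1, ARMCX2, ARMCX3 and ARMCX6 at 12.4 to 21.5 FPKM, and BEX2, WBP5 and NGFRAP1 at 4.53 to 133 FPKM in MDA-MB-231, were all listed at 0 in MDA-MB-468. The cystatin genes of chromosome 20 named above formed the fourth stretch.

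In MDA-MB-231, 6 consecutive measured genes of chromosome 9 between 21329664 and 23826335 were listed at 0 in all 3 samples. They were KLHL9, MIR31HG, MTAP, CDKN2A, CDKN2B and ELAVL2. CDKN2A, which encodes the cell cycle inhibitors p16 and ARF, was at 74.5, 91.6 and 88.0 FPKM in MDA-MB-468, CDKN2B at 12.6, 12 and 11.8 FPKM and MTAP, a methionine salvage enzyme, at 24.4, 23.6 and 23.1 FPKM. FOCAD, the next measured gene at the telomeric side, was at 8.16, 6.89 and 5.56 against 1.78, 1.15 and 1.55 FPKM (1.65). HOX genes, which set position along the body axis, were near 0 in MDA-MB-231 in stretches of the A and C clusters: HOXC10, HOXC11, HOXC12, HOXC13 and the antisense transcript HOTAIR were listed at 0 there and at 2.97 to 25.3 FPKM in MDA-MB-468. Of 15 HOX genes measured (39 listed) 14 (93.3%) were higher in MDA-MB-468 and HOXB9 was higher in MDA-MB-231 (-2.41 ± 0.07). In a line 9 were listed at 0, and the median over the others was 1.49. The kallikreins KLK5, KLK6, KLK8 and KLK9 and the keratins KRT4, KRT5, KRT6A and KRT6B were further stretches near 0 in MDA-MB-231. All 6 cancer-testis genes measured (40 listed), which are silent in most adult tissues, were higher in MDA-MB-468, with MAGEA3 at 143, 148 and 146 against 0.15, 0.08 and 0.06 FPKM (7.07 ± 0.07), a member of a near-identical family.

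RB1 and SMAD4 were low in MDA-MB-468 without their neighbours. RB1, which restrains entry into the cell cycle, was at 0.05, 0.48 and 0.31 against 17.2, 18.4 and 17.8 FPKM (-3.89 ± 0.12, adjusted p = 4.1e-08). The 10 other measured genes within 1 Mb of it differed by -1.51 to 0.86, with a median of -0.57. Around SMAD4 the 6 others differed by -0.38 to 2.11, with a median of 0.27. The regions around EGFR, RB1, SMAD4 and UBN1 were chosen after their values were seen. Of the 25 measured genes of tumour suppression and the cyclin axis, 7 (28%) were higher in MDA-MB-468 against 12 (48%) in MDA-MB-231. Over all genes these shares were 32.7% and 31.4%. BRCA1 was not called (-0.19 ± 0.08). NF2, a regulator of the Hippo pathway, was lower in MDA-MB-231 (2.73 ± 0.08), and the cyclin-dependent kinase inhibitor CDKN1A was higher there (-2.38 ± 0.11).

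Around EGFR on chromosome 7, all 13 measured genes within 1 Mb were higher in MDA-MB-468. SEC61G, a subunit of the translocon, reached 4262, 4172 and 4426 FPKM against 166, 167 and 205 FPKM (4.58). LANCL2 was at 295, 363 and 355 against 11.2, 10.8 and 10.3 FPKM (4.84) and VOPP1 at 576, 551 and 544 against 31.7, 30.9 and 30.9 FPKM (4.12), and the fold changes of these 3 genes were above that of EGFR. The smallest differences of the region were SUMF2 (1.07) and PHKG1 (1.12). PSPH, the serine synthesis enzyme named above, lies in this region. From other work MDA-MB-468 is known as a line with amplified EGFR that lacks RB1 and SMAD4, and MDA-MB-231 as a line with a deletion of CDKN2A. DNA copy number was not measured here, and its part in these levels was not tested.

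**Figure D4:**
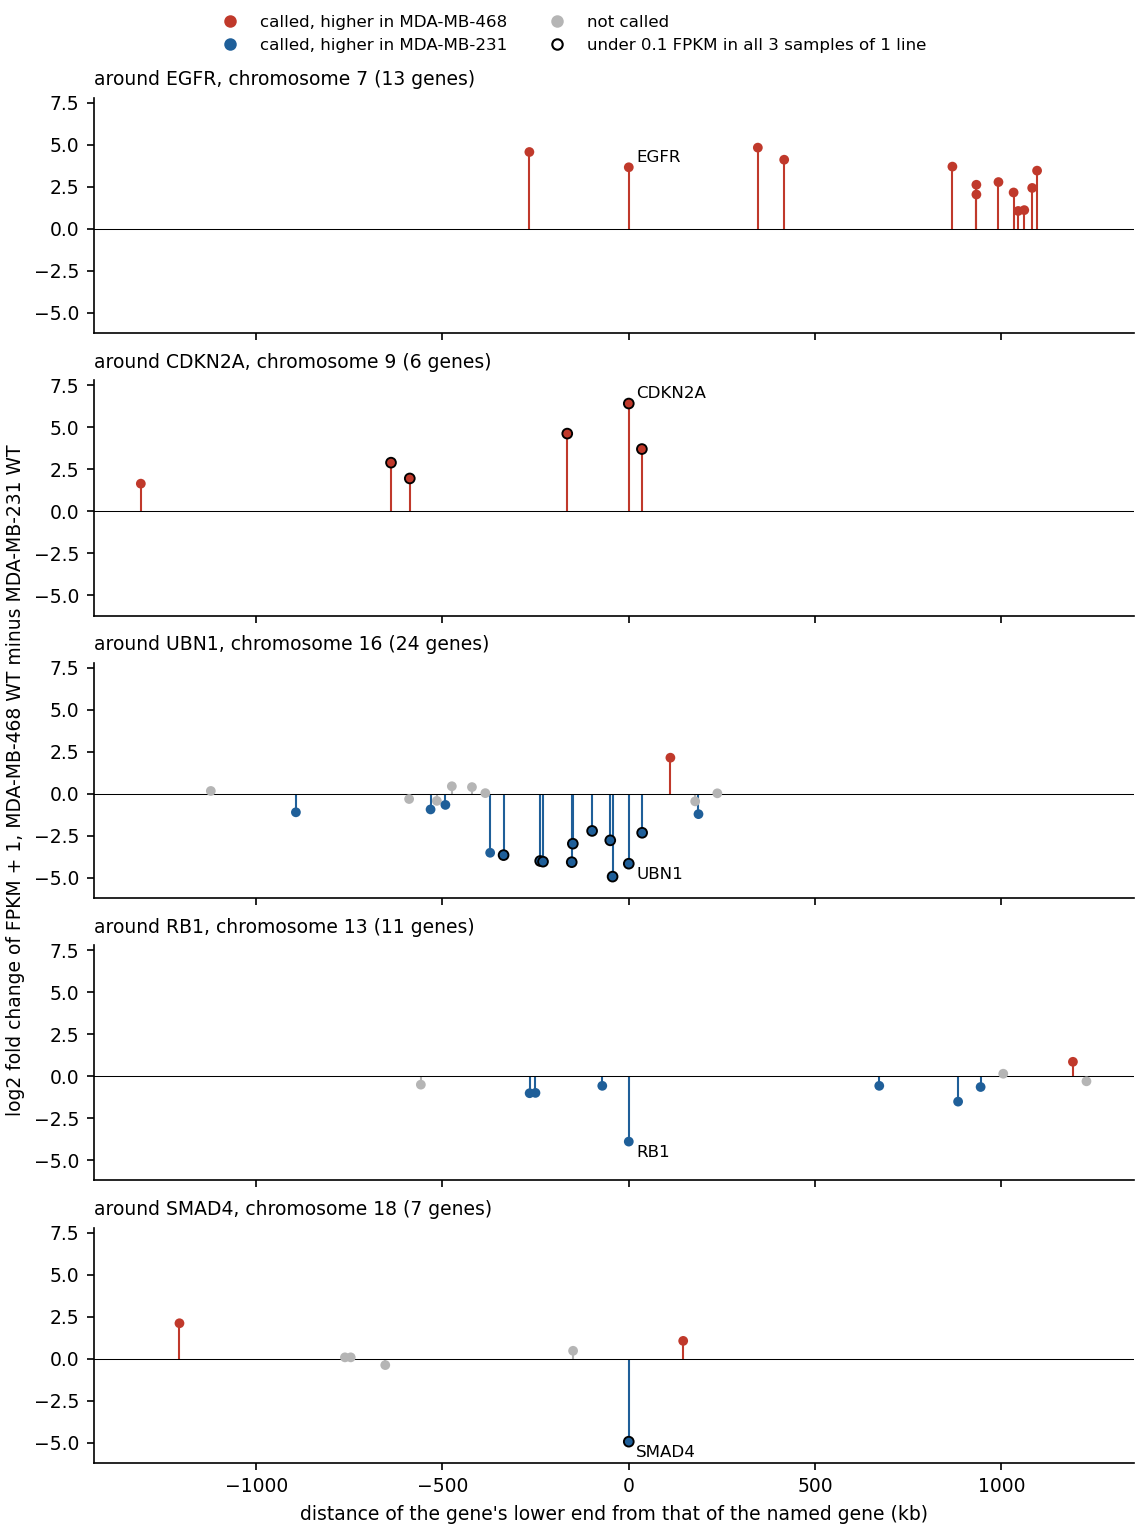
log2 fold change (MDA-MB-468 WT minus MDA-MB-231 WT, FPKM + 1) of the measured genes within 1 Mb of EGFR, CDKN2A, UBN1, RB1 and SMAD4, by the distance of their lower ends in kb. Outlined points were under 0.1 FPKM in all 3 samples of 1 line: 10 genes in the UBN1 panel and 5 in the CDKN2A panel, whereas SMAD4 alone is outlined in its panel and all 13 genes around EGFR lie above 0.

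Whole chromosomes also leaned to 1 line. Genes of chromosome 21 were higher in MDA-MB-468 in 64.3% and higher in MDA-MB-231 in 8.70% of 115 measured, and those of chromosome 22 in 56.8% and 9.02% of 266. Chromosomes 4, 9, 14 and 17 leaned the other way, with 48.2%, 47.7%, 47.5% and 47.5% of their genes higher in MDA-MB-231 and 16.2%, 25.4%, 17.5% and 18.6% higher in MDA-MB-468. The medians per chromosome ran from -0.47 (chromosome 4) to 0.84 (chromosome 21), and in the KO samples those 2 were -0.40 and 0.82.

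**Figure D5:**
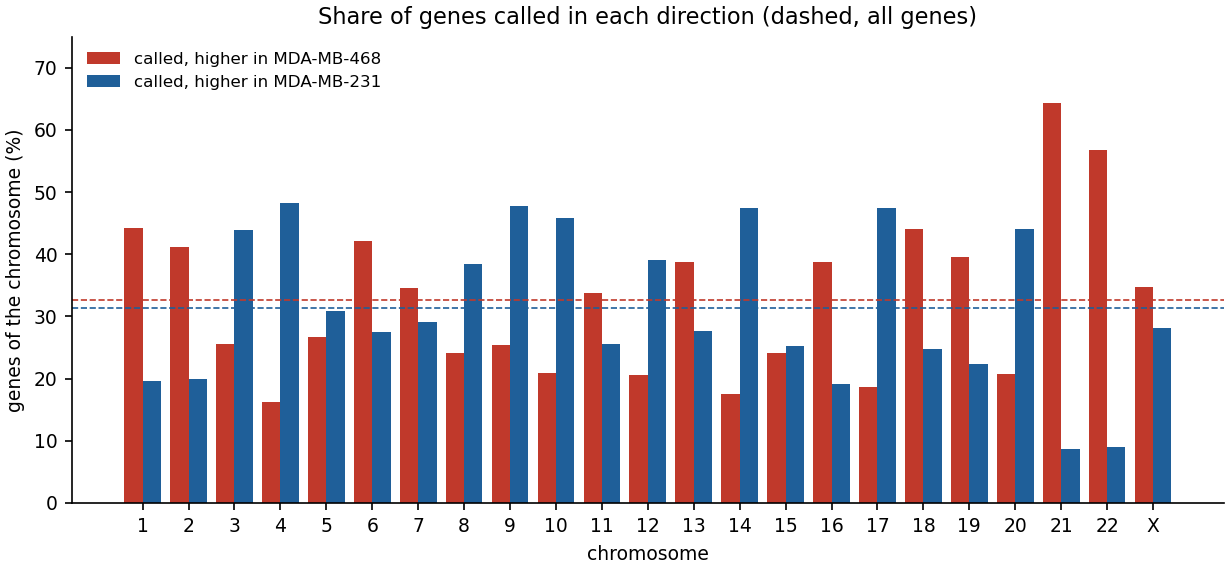
Share of the measured genes of each chromosome that were called higher in MDA-MB-468 or higher in MDA-MB-231, in percent, with dashed lines for all genes (32.7% and 31.4%). Chromosomes 21 and 22 stand out with 64.3% and 56.8% higher in MDA-MB-468.

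Some genes were close in level. The genes of highest level whose 95% interval lay within 0.25 were RPS27, RPS3, ALDOA, RPL5, RPL3, RPL39, RPS25, EEF2, HNRNPC and TAGLN2, mostly of ribosomes and translation. RPS3 was at 1513, 1670 and 1615 against 1510, 1527 and 1656 FPKM and the elongation factor EEF2 at 612, 638 and 626 against 670, 626 and 642 FPKM. Of 20 reference genes 12 were not called, among them ACTB (0.10 ± 0.08), GAPDH (-0.14 ± 0.09) and YWHAZ (-0.09 ± 0.07), while PPIA (0.85 ± 0.07) and RPLP0 (-0.87 ± 0.09) differed in opposite directions.

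Proliferation genes differed in both directions, with 8 of 36 (22.2%) higher in MDA-MB-468 against 17 (47.2%) in MDA-MB-231, beside 32.7% and 31.4% of all genes. Every difference lay between -1.31 (AURKB) and 1.46 (MYBL2). SMARCA4 passed narrowly (0.51 ± 0.07, adjusted p = 0.00015), and fell under the limit without replicate 3 of MDA-MB-231 (0.50) or of MDA-MB-468 (0.49). Of the 23 SWI/SNF subunits measured 6 (26.1%) were higher in each line, under both shares of all genes, and 11 were not called. The largest among them were ARID1B (1.58 ± 0.09) and BRD7 (1.46 ± 0.07) in MDA-MB-468 and SMARCD1 (-1.13 ± 0.06) in MDA-MB-231.

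The same contrast in the SMARCA4 KO samples, which share no library with the WT comparison and derive from the same lines, called 7240 genes (62.8%), 3822 higher in MDA-MB-468 (33.2%) and 3418 higher in MDA-MB-231 (29.6%). The calls common to both in the same direction numbered 6421, which is 86.8% of the WT calls and 88.7% of the KO calls, and 6 genes were called in opposite directions. Of the 1670 genes called over 2 in the WT samples 1663 were called the same way in the KO samples. The genes near 0 in 1 line met the same limits in the KO samples in 117 of 158 cases for MDA-MB-468 and in 117 of 168 for MDA-MB-231, and 0 of either set exceeded 1 FPKM in all 3 KO samples of the line where it was near 0. The size of the line difference itself differed between KO and WT samples in 1004 genes (8.71%; interaction, adjusted p under 0.05 and an absolute difference over 0.5). Among the genes above, the epithelial difference of CDH1 was 5.16 in WT and 4.41 in KO samples, and the difference of CAV1 was -4.04 and -2.57. From WT to KO samples CDH1 changed by -0.22 in MDA-MB-468 and by 0.54 in MDA-MB-231. CAV1 changed by 1.44 in MDA-MB-468 and by -0.03 in MDA-MB-231.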

How the data were processed

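RNA of the 12 samples had been sequenced from poly(A)-selected stranded libraries. The authors used Trimmomatic on the reads, a STAR alignment against hg19 and RSEM for FPKM values, left out every gene whose FPKM averaged below 1 or varied with an SD below 1, and deposited the rest as log2(FPKM + 1). In the table itself, no gene averaged under 1.07 FPKM across samples or had an SD under 1.0. Read depth is unknown, so counting intervals and floors are not given, and an exact 0 may be a failed estimate. Genes listed at 0 in all samples of a line are given without a fold change.

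Samples were grouped by the genotype and cell line of their labels. The deposited log2 values were fitted with limma 3.58.1 in R 4.3.3 (lmFit, eBayes without a trend), 3 MDA-MB-468 WT against 3 MDA-MB-231 WT samples, without a further filter or normalization. The KO samples had the same fit, and the difference of both was the interaction in 1 fit of all 12. Called genes had a Benjamini-Hochberg adjusted p under 0.05 with a log2 fold change beyond 0.5 either way. Nothing says that replicates were separate cultures, so p-values measure the spread between these samples, which may be technical. On simulated data the fit was tested before use. Near 0 meant under 0.1 FPKM in each of 3 samples of 1 line and over 5 FPKM in each of the other. Stretches were 3 or more neighbouring measured genes under 0.1 FPKM in 1 line and over 1 FPKM in the other.

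Gene lists and named genes were chosen with earlier results of these data known. The rule named the genes of the largest difference each way whose groups did not overlap, list members, the near-0 genes highest in the other line, the largest differences among genes over 10 FPKM in all samples, genes of stretches, genes of highest level whose 95% interval lay within 0.25, and SMARCA4. Not all genes it named are printed, and some are not reported here. In 18 rows a date stood in place of a symbol. These rows were tested and not named. Positions came from GENCODE release 44 mapped to GRCh37, matched by current symbol for 10181 genes and through RefSeq synonyms for 694 (94.3% of rows), and promoters from RefSeq (GRCh38.p14). Tables and plots were made with Python 3.11.15, pandas 2.3.3 and matplotlib 3.10.9. Alternatives were a filter on low values, a pseudocount of 0.1 in place of 1, other scalings, thresholds and models, a replicate block and leaving out each sample.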

Additional observations from a re-analysis of the deposited data

Results flagged for a closer look

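The line difference itself differed between the KO and the WT samples in 43 of the 200 named genes (limma interaction over all 12 samples, adjusted p under 0.05 and an absolute difference over 0.5), against 8.71% of all genes. Many named genes were picked for large line differences or with earlier results known, so their share cannot be compared with that of all genes. Values are the line difference in KO minus that in WT samples on the log2(FPKM + 1) scale, so that for a gene higher in MDA-MB-468 a negative value is a smaller line difference in KO samples, and for a gene higher in MDA-MB-231 a positive value is. Among epithelial genes, these were CDH1 (-0.76), TJP3 (-1.05), CLDN8 (0.56), PPL (-1.01), PARD6B (-0.86), ELF3 (-0.95), FOXA1 (-0.79), EHF (-1.0) and KRT4 (-1.73). Among mesenchymal, matrix and cytoskeleton genes, these were VIM (0.81), CAV1 (1.47), LGALS1 (1.11), COL5A2 (1.13), COL6A2 (-1.16), LAMB3 (1.15), PLAU (0.74), MMP15 (-0.81), TGM2 (-0.73) and TPM1 (0.70). Among receptors, ligands and their targets, these were ERBB3 (-0.66), TGFA (-0.73), DDR1 (-0.70), MET (0.69), KITLG (-0.70), GAS6 (1.18), TGFB1 (1.02) and CTGF (1.96). Among immune genes, these were CSF2 (0.89), IL8 (1.34), CX3CL1 (-0.89), CXCL16 (-0.82), HLA-DRA (-2.0), IFI16 (0.53) and OAS1 (-1.11). Among the remaining named genes, these were ALDH1A3 (-1.56), ALDH3B2 (-0.74), CA9 (-1.55), LDHB (1.84), CDKN1A (0.78), CDKN2B (0.68), G0S2 (1.31), HOXC13 (0.56) and MGP (-0.68). In EHF the line difference changed sign, from 0.33 in WT to -0.67 in KO samples. PPL, CLDN8, COL6A2, G0S2, HLA-DRA, KRT4, CDKN2B, HOXC13, ALDH3B2 and MGP were listed at 0 in the 3 WT samples of a line, and their values are changes of the other line's level in the main. The cause of these differences was not tested.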

How the results depend on the processing

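The count of genes that differed between the lines, 7395, was within 1.5 times under each alternative fit: 7394 with a filter at 1 FPKM in 3 or more samples, 7595 with a pseudocount of 0.1, 7401 with an intensity trend, 7397 in 1 fit of all 12 samples, 7379 with 75th percentile scaling, 7374 with quantile normalization, 7312 at an adjusted p under 0.01, 5719 with treat at 0.5 and 7351 to 7424 without each sample. It fell by construction with the threshold, to 4150 over a log2 fold change of 1 (2211 higher in MDA-MB-468, 1939 in MDA-MB-231) and 1670 over 2 (891 and 779). In the KO samples, 7240 became 3998 (2107 and 1891) and 1577 (816 and 761), and 7218 to 7274 without each sample. Quantile normalization turned the balance of the WT calls, to 3625 higher in MDA-MB-468 against 3749 in MDA-MB-231. The genes near 0 in MDA-MB-468, 158, became 265 with a limit of 0.5 FPKM, 97 at exactly 0 and 253 with over 1 FPKM in the other line, and were 159 to 171 without each sample. Those near 0 in MDA-MB-231, 168, became 303, 90 and 266, and 171 to 184. With WT and KO samples together both were 117. Deviations of same-numbered samples of the lines correlated at -0.0973, -0.0152 and 0.0078 in WT and at 0.175, 0.0204 and 0.115 in KO samples. Those of differently numbered samples correlated at -0.147 to 0.136 in WT and at -0.191 to 0.147 in KO samples. With 3 samples a group, these values neither show nor exclude a pairing by number. With a replicate block 7405 WT and 7258 KO genes were called. Of 200 named genes 6 changed their call under any fit, and no gene changed sign while called. SMARCA4 (0.49 to 0.50) and SOX9 (0.46 to 0.47) dropped under the limit without 1 of 2 samples each, CALD1 passed it without MDA-MB-468 replicate 1 (-0.51), and treat at 0.5 lost AMOTL2, COL4A5, PSAT1, SMARCA4 and SOX9. No list median changed sign with scaling or pseudocount, but a pseudocount of 0.1 moved 5 of them by over 1.5 times: HOX genes from 2.75 to 5.24, basal-like markers from 3.93 to 7.05, epithelial transcription and splicing factors from 3.38 to 5.45, MHC class II from -3.14 to -4.89 and leukocyte markers from -1.50 to -2.31.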
